A study of Mus musculus with 6 samples.

Results

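The ganglion cell neurofilaments and axon proteins examined here are 8 genes, Nefl, Nefm, Nefh, Ina, Sncg, Thy1, Gap43 and Rbpms, which were taken by gene symbol from all probe sets of the array. Together they have 13 of the 22690 probe sets: Ina has 3, Rbpms has 4, and each of the others has 1. Retinas were dissected from 3 wildtype and 3 Nhlh2 knockout mice at postnatal day 4 (P4), and the RNA of each was hybridised to its own Affymetrix Mouse 430A 2.0 array, so that each group has 3 arrays. Both groups were on a mixed C57/129 background, and according to the series design the wildtype and the knockout with the same number were littermates, which gives 3 pairs. Nhlh2 encodes a helix-loop-helix transcription factor of developing neurons. The labels give the knockout by gene name alone, with no description of the allele. The wildtype arrays give the levels of these genes in the developing retina, and the pairs compare them between knockout and wildtype.

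Retinal ganglion cells are the only neurons that send axons from the retina to the brain. The calibre of their axons depends on neurofilaments, intermediate filaments assembled from a light, a medium and a heavy chain (Nefl, Nefm and Nefh) together with alpha-internexin (Ina). Alpha-internexin and the lighter chains appear early in neuronal differentiation, and the heavy chain accumulates as axons mature. Gap43 belongs to the growth cone, Thy1 to the cell surface and Sncg (gamma-synuclein) to the cytoplasm of ganglion cell axons, while Rbpms is an RNA-binding protein used to label ganglion cell bodies.

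Each value below is a MAS 5.0 signal, a linear intensity per probe set, multiplied so that the 2% trimmed mean of its array became 500. The scale factors were 1.86 to 2.94 in 5 arrays and 19.5 in knockout replicate 2. In that array the signal of Actb was 274 times higher at the 3′ end than at the 5′ end, against 1.38 to 1.56 in the other 5, and its rank correlation (Spearman's rho over all probe sets) with any other array was at most 0.670, against at least 0.947 among the others. Knockout replicate 2 was therefore left out of the main comparison, and its values are given beside the others. The table of probe sets used here lists none for Nhlh2, so the genotype labels could not be checked against the targeted gene. Of 14 listed genes of ganglion cell identity 11 were measured, without Pou4f1, Pou4f2 and Nrn1. In all 3 wildtype mice 6 lay above the median of the array, among them Isl1, Eomes, Ebf3 and the glutamate transporter Slc17a6. Another 3, Pou4f3, Chrnb3 and Irx2, did so in none. The median splits the probe sets of an array evenly, so these counts show no enrichment. Markers of photoreceptors (Nrl), amacrine cells (Gad1) and Mueller glia (Glul) were also present, as in whole retina. In a whole tissue, fewer ganglion cells and less RNA per ganglion cell cannot be told apart. Nor can the part of a signal that comes from ganglion cells be told from that of other cells.

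The promoter sequences used here (RefSeq, GRCm38.p6, 250 bases before to 50 after the start of the gene) matched 2 of the 8 genes, Ina and Sncg. They are shown for the E-box, the short motif CANNTG that helix-loop-helix proteins bind, because the targeted gene encodes such a factor. Each of the 2 promoters held 1 E-box, in capitals below with 10 bases on either side.
Ina, chr19:47014536-47014561, plus strand: cggtggcgcgCAGCTGcggtggcact
Sncg, chr14:34374663-34374688, minus strand: atcaatatttCATCTGcgtcaataag
In Ina the E-box began 135 bases before the start, and in Sncg 9 bases before it. CANNTG occurred on either strand in 72.3% of 32851 promoters of the same length, CAGCTG in 16.3%, and CATCTG or its reverse complement in 17.2%, where the latter pair are forms of the first. Such a match describes the letters of the window and is no evidence of binding.

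The neurofilament chains Nefl, Nefm and Ina had signals in the upper part of the array in P4 wildtype retina, and Nefh lay near the middle. Nefl, the light chain that forms the core of the filament, had 2395, 2361 and 1919 in wildtype replicates 1, 2 and 3, or 2225 ± 265 (SD, n = 3), above 91.8% to 93.8% of the probe sets of its array. Replicates 1 and 2 were close, and replicate 3 was lower. Nefm, the medium chain, had 1068, 1050 and 1227, or 1115 ± 97.7 (SD, n = 3), with the smallest coefficient of variation of the 8 genes (8.76%). Its percentile within the array ran from 84.6% to 87.1%.

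Nefh, the heavy chain of mature axons, had 138, 166 and 219 in wildtype replicates 1, 2 and 3, or 174 ± 41.0 (SD, n = 3). It exceeded the median of its array in 1 of 3 wildtype mice, with percentiles between 46.1% and 56.2%, and its coefficient of variation of 23.6% was the largest of the 8. Alpha-internexin on probe set 1448991_a_at, the brightest of 3, had 2456, 1953 and 2578, or 2329 ± 331 (SD, n = 3), at percentiles of 92.0% to 94.1%. The other Ina probe sets were dimmer, with 1386 ± 234 on 1418178_at and 1194 ± 305 on 1448992_at (SD, n = 3 for each), and all 3 probe sets had their highest wildtype value in replicate 3 and their lowest in replicate 2. The signal of a probe set also depends on its probes, so no order of transcript amounts between genes is read from these values.

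**Figure D1:**
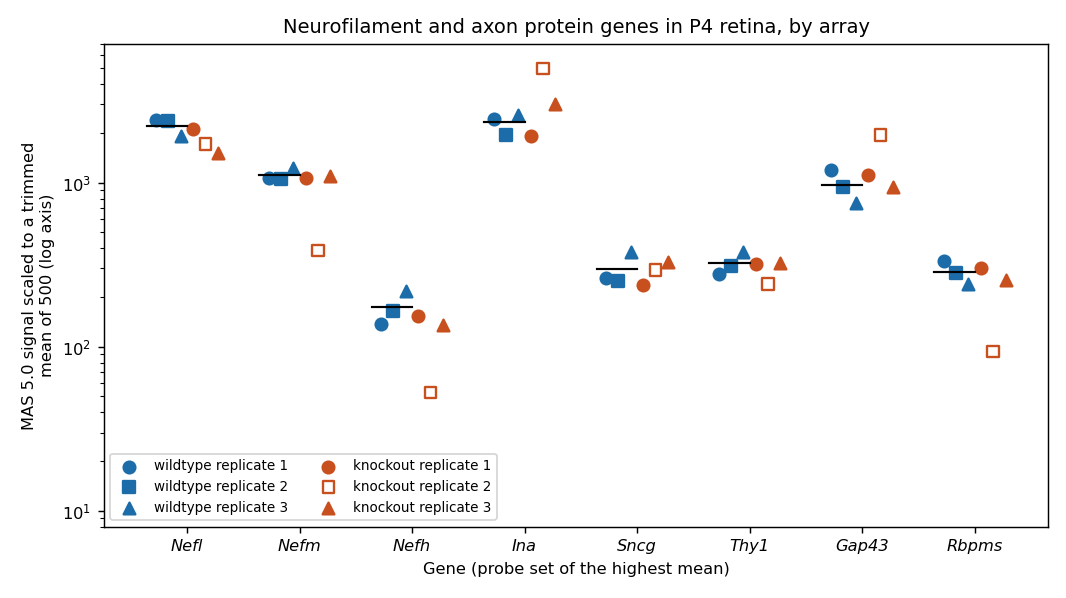
Scaled MAS 5.0 signal (log axis) of the 8 genes in each of the 6 arrays, on the probe set of the highest mean. Blue points are wildtype and orange points knockout, with circles, squares and triangles for replicates 1, 2 and 3, knockout replicate 2 as an open square and the wildtype mean as a black line. The open squares leave the range of the other arrays for Nefm, Nefh, Ina, Gap43, Rbpms and, by less, Thy1.

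Gap43, a growth cone protein that anchors actin at the membrane of extending axons, had 1197, 944 and 752 in wildtype replicates 1, 2 and 3, or 964 ± 223 (SD, n = 3). Replicate 1 was the highest and replicate 3 the lowest. The surface and cytoplasmic markers Thy1 and Sncg were above the array median in every wildtype mouse. Thy1, a lipid-anchored surface glycoprotein, had 276, 310 and 380, or 322 ± 53.1 (SD, n = 3), and its percentiles ran from 58.9% to 66.9%. Thy1 also marks T cells. None of the 6 measured T cell markers exceeded the median in any wildtype array, and Cd3e had a mean of 17.7. The part of T cells in the Thy1 signal was not tested. Sncg had 264, 253 and 379, or 299 ± 69.5 (SD, n = 3), at percentiles of 56.7% to 66.8%, and here too wildtype replicate 3 was highest.

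Rbpms had 335, 281 and 241 on its brightest probe set, 1429359_s_at, or 285 ± 47.0 (SD, n = 3), above the median in all 3 wildtype mice. Its other probe sets were lower, with 183 ± 17.8 on 1437161_x_at, 164 ± 54.1 on 1425652_s_at and 46.0 ± 47.7 on 1455936_a_at (SD, n = 3 for each). On 1455936_a_at the 3 wildtype mice had 97.3, 3.17 and 37.4, all below the median of their arrays. The suffixes s_at and x_at mark probe sets that may detect more than one transcript, so Rbpms is the least certain of the 8. Over the 8 genes the median coefficient of variation between wildtype mice was 16.5%, beside 16.4% for all 11315 probe sets tested.

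In the knockout retinas none of these genes passed the test against wildtype. On the probe set of the highest mean, Nefl, Nefm and Sncg had lower values in the knockout of both pair 1 and pair 3. The other 5 genes had opposite signs in these pairs on that probe set, though other probe sets of Ina and Rbpms differed from it (below). For Nefl the knockouts had 2121 and 1509 in replicates 1 and 3, against 2395 and 1919 in their littermates, so that the ratio of knockout to wildtype was 0.886 in pair 1 and 0.786 in pair 3. Knockout replicate 1 lay within the wildtype range and knockout replicate 3 below it. Fitted over the 5 arrays, the log2 difference was -0.31 (SE 0.23, limma adjusted p = 0.999), a ratio of 0.808 with a 95% interval of 0.550 to 1.19.

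Nefm had 1061 and 1099 in knockout replicates 1 and 3, inside the wildtype range of 1050 to 1227. Its ratio of knockout to wildtype was 0.994 in pair 1 and 0.895 in pair 3, and the fitted ratio of 0.971 had the narrowest interval of the genes tested, 0.717 to 1.32. For Nefh the knockouts had 154 and 136, and the pairs disagreed, with ratios of 1.11 in pair 1 and 0.621 in pair 3. Nefh did not pass the filter on low signal, and without it its log2 difference was -0.24 (SE 0.29). Ina had 1913 and 3032 in knockout replicates 1 and 3, on either side of the wildtype values. The ratio was 0.779 in pair 1 and 1.18 in pair 3, and the fitted ratio was 1.04 (0.669 to 1.62). Its other probe sets, 1418178_at and 1448992_at, had fitted ratios of 0.930 and 1.01. Unlike the brightest one, they were lower in the knockout of both pair 1 and pair 3. The ratios in these pairs were 0.784 and 0.924 on 1418178_at, and 0.936 and 0.89 on 1448992_at.

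Gap43 had 1111 and 948 in knockout replicates 1 and 3, both within the wildtype range, with ratios of 0.928 in pair 1 and 1.26 in pair 3. The log2 difference was 0.12 (SE 0.25, limma adjusted p = 0.999), the most positive value among the genes tested, with a ratio of 1.08 (0.715 to 1.64). Thy1 had 321 and 326 in the knockouts, ratios of 1.16 and 0.857 in the pairs, and a fitted ratio of 1.01 (0.716 to 1.43). For Sncg the knockout values were 237 and 329, and the knockout was the lower mouse in both pairs, with ratios of 0.897 and 0.868. Its fitted ratio was 0.950 (0.610 to 1.48). Rbpms had 301 and 256 on 1429359_s_at, with ratios of 0.898 and 1.06 and a fitted ratio of 0.980 (0.682 to 1.41). On 1437161_x_at, which did not pass the filter, the knockouts had 134 and 119, and the wildtypes 165, 200 and 184. The log2 difference there was -0.53 (SE 0.22, limma unadjusted p = 0.0674 and adjusted p = 0.9998 without the filter). The remaining Rbpms probe sets, also fitted without the filter, had ratios of 0.935 (0.444 to 1.97) on 1425652_s_at and 2.38 (0.181 to 31.3) on 1455936_a_at. In pairs 1 and 3 the ratios were 0.816 and 0.644 on 1437161_x_at and 0.877 and 0.984 on 1425652_s_at. On 1455936_a_at they were 0.399 and 2.36.

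**Figure D2:**
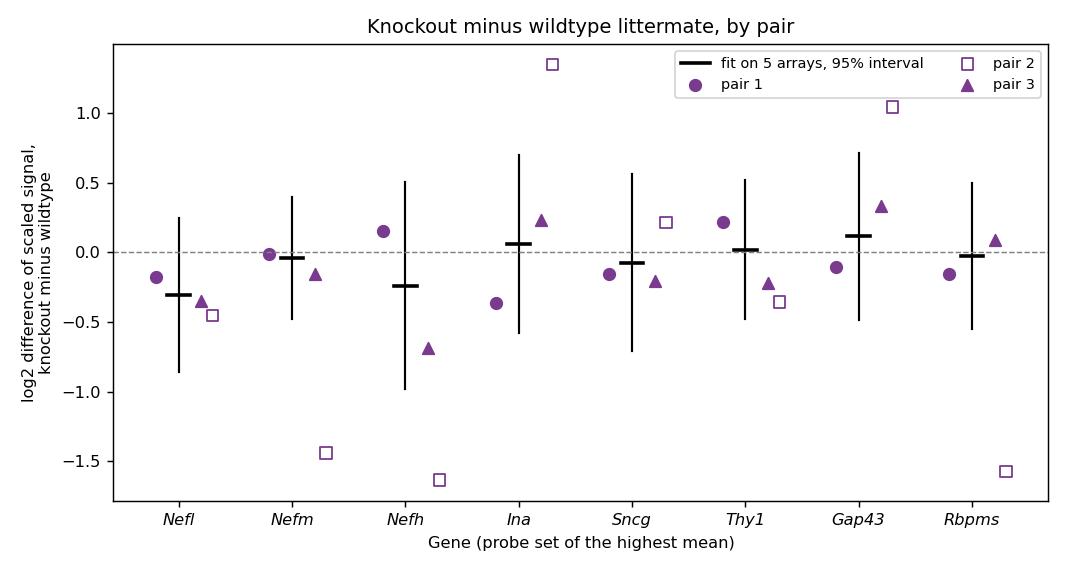
Log2 difference of scaled signal, knockout minus wildtype littermate, for the 8 genes on the probe set of the highest mean. Filled circles and triangles are pairs 1 and 3, open squares are pair 2, and black bars with vertical lines are the fit over 5 arrays with its 95% interval (for Nefh without the filter on low signal). Every interval includes 0, while pair 2 reaches -1.64 for Nefh and 1.35 for Ina.

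Of the 13 probe sets, 9 of 7 genes passed the filter, and limma called 0 of these 9. Over all 11315 probe sets tested it called 0 as well (percent called 0), with the smallest adjusted p at 0.999. At an unadjusted p under 0.05 there were 83 probe sets (0.734%), none of them of these genes. With all 6 arrays 0 of 11603 were called, and 11 had an unadjusted p under 0.05 (0.0948%). The median log2 difference of the 9 probe sets was -0.03, beside -0.01 for all tested. Of the 9, 5 were negative, beside 5770 of the 11315. Across the 8 genes the median log2 difference was -0.13 in pair 1, where 2 genes were higher in the knockout. In pair 3 it was -0.18, and 3 genes were higher. Of all probe sets that passed the filter, 50.9% were higher in pair 1 and 50.7% in pair 3. For all probe sets that passed the filter the medians were 0.0043 in pair 1, -0.62 in pair 2 and 0.006 in pair 3. A p-value above the threshold does not show that the genotypes were alike: the intervals above leave room for changes such as a fall of Nefl to 0.550 of wildtype.

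In pair 2 most differences were larger, and they moved with the array of knockout replicate 2, in which the median log2 difference was -0.41 over the 8 genes, beside -0.62 over all probe sets that passed the filter. Nefl and Nefm were lower in the knockout in this pair too, but lower values were the more common ones in it. In the knockout 3 of the 8 genes (37.5%) were higher, beside 36.9% of the 11315 probe sets that passed the filter. Nefm had 386, Nefh 52.6 and Rbpms 93.5, ratios of 0.367, 0.318 and 0.333 to wildtype replicate 2. In contrast Ina had 4973 and Gap43 1950, ratios of 2.55 and 2.06. Nefl (1724), Sncg (294) and Thy1 (242) had ratios of 0.730, 1.16 and 0.780.

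Probe sets of one gene came apart in this array. For Ina the ratio in pair 2 was 2.55 on 1448991_a_at, 1.07 on 1418178_at and 0.535 on 1448992_at. For Rbpms 1425652_s_at had 5.84, against 157 in the littermate, while 1437161_x_at had 150 against 200. With all 6 arrays the log2 difference was -0.54 for Nefm, -0.55 for Rbpms and -0.33 for Nefl, and 0.42 for Gap43 and 0.41 for Ina on 1448991_a_at, with adjusted p = 0.75 for each (limma). Sncg had -0.0484 and Thy1 -0.12, and Nefh had -0.72 (SE 0.54) without the filter. What part the state of this RNA had in these values was not tested.

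**Figure D3:**
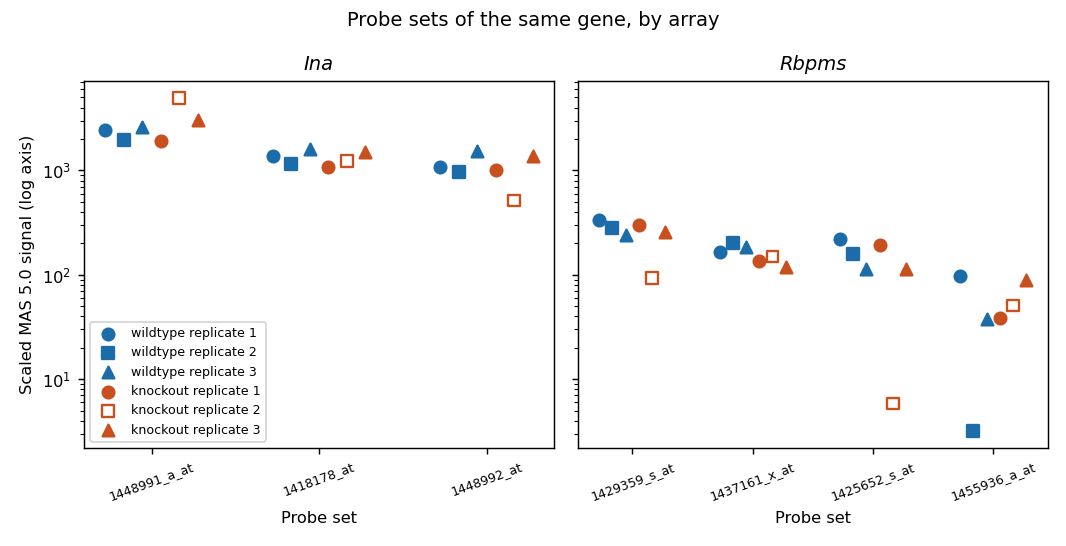
Scaled signal (log axis) of the 3 probe sets of Ina and the 4 of Rbpms in each array, with blue for wildtype, orange for knockout and an open square for knockout replicate 2. The other 5 arrays keep to 961 to 3032 on all Ina probe sets, while the open square runs from 514 to 4973.

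The genes also differed between the mice of litter 1 and those of litter 3, with only 1 mouse of each genotype per litter. On the probe set of the highest mean, Gap43, Rbpms and Nefl were lower in litter 3 than in litter 1 in both genotypes. Ina, Sncg, Nefm and Thy1 were higher. For Sncg the log2 difference of replicate 3 minus replicate 1 was 0.52 in wildtype and 0.47 in knockout, and for Gap43 it was -0.67 and -0.23. Rbpms had -0.47 and -0.23, and Nefl -0.32 and -0.49. Ina had 0.07 and 0.66, Nefm 0.20 and 0.05, and Thy1 0.46 and 0.02. On these probe sets Nefh alone differed in sign, with 0.66 in wildtype and -0.18 in knockout. Thus 7 of 8 genes (87.5%) had the same sign in both genotypes, against 72.9% of the 11315 probe sets that passed the filter. The other Rbpms probe sets, which did not pass it, were divided. On 1425652_s_at the values were -0.95 in wildtype and -0.78 in knockout. Signs differed on 1437161_x_at (0.16 and -0.18) and on 1455936_a_at (-1.36 and 1.17). The labels do not say whether arrays of a litter were processed together, so litter and array handling cannot be told apart. Markers of dividing progenitors summed to 27934, 20016 and 25406 in wildtype replicates 1, 2 and 3 and to 26570 and 33920 in knockout replicates 1 and 3. Those of rods summed to 29392, 33591 and 47107 in wildtype, and to 32545 and 36962 in knockout. Their part in the values of the 8 genes was not tested.

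**Figure D4:**
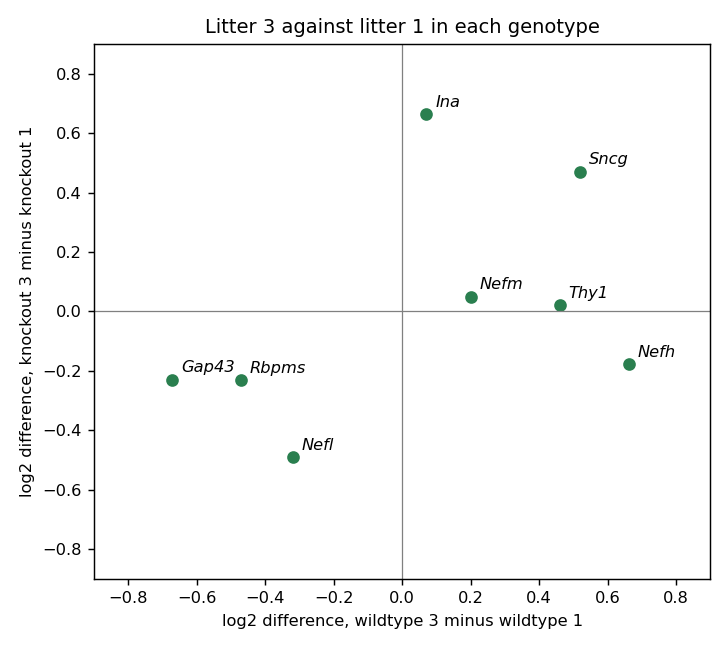
Log2 difference of litter 3 minus litter 1 in wildtype (horizontal axis) and in knockout (vertical axis) for the 8 genes. There is 1 point per gene, on the probe set of the highest mean. Gap43, Rbpms and Nefl lie in the lower left, Ina, Sncg, Nefm and Thy1 in the upper right, and Nefh (0.66 and -0.18) in the lower right.

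The mean profile of the 7 genes that passed the filter was flat, between -0.06 and 0.07 on the log2 scale around its mean over 5 arrays. The genes with the profile most like it, by root mean square difference over these 5 arrays among 6770 candidates, were Nbea (0.0145), Eif3b (0.0173) and Zfx (0.0183). The genes themselves lay farther from their own mean profile, from 0.0735 for Nefm to 0.249 for Nefl, and the median of all candidates was 0.209.

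No probe set of the array was called, so the lists of related genes of the axon could hold no call either. Over 6 lists with 81 genes, 69 were measured, 52 were tested, and 0 were called in either direction. In the list of growth cone and cytoskeletal proteins, 22 of 24 genes were tested, with 12 positive and 10 negative differences and a median log2 difference of 0.04. Stmn1, a tubulin-binding protein, had the highest signal (17261 ± 3091, SD, n = 3) and Dpysl2 the lowest (25.9). Of the axon surface and adhesion list, 6 genes were tested, with a median of 0.01. Its highest member was Cd24a with 5941 ± 561 (SD, n = 3), and its lowest was Chl1 with 15.3.

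The axonal transport motors had 10 genes tested, of which 8 had negative differences, and a median of -0.13. The dynein activator subunit Dctn1 was the highest with 3036, and Dync1i1 the lowest with 78.6. Of 8 ganglion cell identity genes tested, 5 were negative and 3 positive, with a median of -0.04, a highest signal of 1084 for Ebf3 and a lowest of 41.8 for Chrnb3. Among relatives of the neurofilaments, Vim, the filament of progenitors and glia, had 5791 and Krt19 38.0. Lmnb2, a nuclear lamin, had 229, 223 and 241 in wildtype and 183 and 137 in knockout replicates 1 and 3, with a log2 difference of -0.54 (SE 0.20). It was the one gene of these 52 with an unadjusted p under 0.05 (limma, adjusted p = 0.999), beside 0.734% of all probe sets tested. Of the relatives of Sncg and Rbpms only Sncb was tested (541 in wildtype), with -0.14, and the lowest was Sncaip with 81.2.

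**Figure D5:**
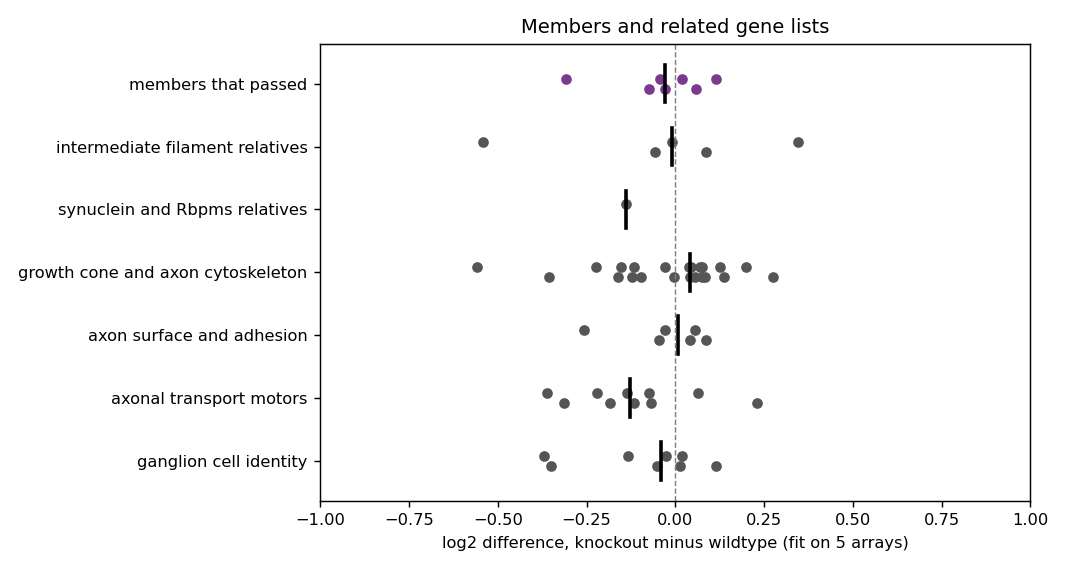
Log2 difference of knockout minus wildtype from the fit over 5 arrays for the 7 genes that passed the filter (purple) and for the tested genes of 6 related lists (grey), 1 point per gene, with the median as a black bar. Points fall on both sides of 0 in each list with more than 1 gene, and the medians run from -0.14 to 0.04.

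For markers of other retinal and neighbouring cells 47 genes over 14 lists were tested, and 0 were called, as for the whole array. Of these 47, 2 had an unadjusted p under 0.05 in limma, as did 0.734% of all probe sets tested. They were the pericyte gene Rgs5 (log2 difference -0.64, SE 0.21) and the complement gene C1qa of microglia (-0.44, SE 0.18), each with an adjusted p of 0.999. The other tested genes of their lists did not share these falls. C1qb had 0.50 (SE 0.33), Cx3cr1 0.05 and Csf1r -0.0028, while Kdr had 0.11 and Cldn5 0.01. The remaining genes of both lists did not pass the filter. Among them, Pdgfrb had ratios of knockout to wildtype of 0.579 in pair 1 and 1.11 in pair 3. Dividing progenitors had 8 of 8 tested genes with positive fitted differences (median log2 0.32), beside 5770 of all 11315 probe sets with negative ones. The pairs disagreed. In pair 1 all of them but Pcna (ratio 1.09) were lower in the knockout, from 0.71 for Fgf15 to 0.945 for Mcm2. In pair 3 all were higher, from 1.26 for Ccnd1 to 2.40 for Fgf15. Mki67 had 2925 ± 947 in wildtype, and Ccnd1 had the highest signal with 8377. Amacrine cells had 4 of 5 negative (median -0.20), with Tfap2a at 1511 and Gad1 at 1521. Mueller glia had 4 of 6 negative (median -0.14), with Rlbp1 at 4345 and Glul at 4739. Rods had 4 of 6 negative (median -0.07, Nrl 13205), and cones 1 of 4 (median 0.10, Opn1sw 1781). The 2 bipolar genes tested were both positive (median 0.29), with Pcp2 at 396 and Vsx1 at 43.1, and the 1 horizontal gene tested, Prox1 (272), was negative with -0.39, while Lhx1 had 60.2. Medians were -0.045 for 3 genes of astrocytes and oligodendrocytes (Aldoc 1207, Gfap 190.5), 0.01 for 3 of endothelium (Kdr 1729, Pecam1 54.5), 0.02 for 4 of microglia (Csf1r 578, Aif1 36.6) and -0.08 for 5 of pigment epithelium (Ttr 8814, Rpe65 44.7). No gene of red blood cells (highest Alas2, 54.7, with Hba-a1 at 16.8), of T cells (highest Cd8a, 39.2) or of lens was tested. The lens list stood out in wildtype replicate 1, where its 7 measured genes summed to 11189, mostly Cryaa with 5810, against 74.6 and 80.9 in the other wildtype mice. In knockout replicates 1, 2 and 3 the sums were 95.8, 937 and 132. Wildtype replicate 1 is the reference in pair 1 and in the wildtype difference of litter 3 minus litter 1. The part of this lens signal in those values was not tested.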

How the data were processed

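Retinal RNA of 6 P4 mice was measured on 6 arrays. The authors analysed the raw data with MAS 5.0 and deposited 1 linear intensity per probe set and array. Its version and scaling target are not given in the sources used here, and a genome build does not enter these values. The 2% trimmed means of the arrays differed (25.7 to 268), so the signals were scaled to a trimmed mean of 500. Scaling assumes that most genes do not change. Arrays have no read depth, and their number limits the precision.

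Of 22690 probe sets, 64 controls were left out, 20380 carried 1 gene symbol, 691 several and 1555 none. Symbols were checked against RefSeq GRCm38.p6, and 0 changed. Where a gene has several probe sets, that of the highest mean over 5 arrays is given. Log2(signal + 1) was fitted with limma 3.58.1 in R 4.3.3 (lmFit and eBayes, two-sided, Benjamini-Hochberg over all probe sets tested), without knockout replicate 2 and without the pair as a term. Probe sets above the median of the array in at least 3 of the 5 arrays were tested. The 5-array intervals are at 95%. Differences within a pair have no test.

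The pairing comes from the series design. After removal of the group means over 6 arrays, r between same-numbered mice was 0.27, -0.14 and 0.18 for pairs 1, 2 and 3, and the highest r of any wildtype with any knockout was 0.38, between mice of different number (wildtype 2 and knockout 1). The knockout mean removed here includes knockout replicate 2, which enters the values of the other knockouts, so these r cannot check the pairing. The fit was tested on simulated data in which 200 probe sets were changed. It called 69.5% of them at a log2 difference of 2 and 0% at a log2 difference of 1. Thus 0 calls do not show that differences are absent. The 8 genes, the 6 related lists, the 14 marker lists and the left-out array were chosen with earlier results of these data known. The text names all 8 genes, the highest and lowest member of each related list with any gene called, and for marker lists the highest and the first listed gene. It also names the 3 genes with the nearest profile. Genes outside this rule, among them Lmnb2, Rgs5, C1qa and those of the closing section, were chosen after their values were seen. Alternatives were all 6 arrays, the pair as a block, array weights, other scalings, constants and filters, an intensity trend, other probe sets and leaving out each array.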

Additional observations from a re-analysis of the deposited data

How the results depend on the processing

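No setting called any probe set of these genes. On the probe set of the highest mean and on means over probe sets of a gene, the smallest adjusted p was 0.511 (limma). Directions were uncertain: of 120 values under alternatives, 24 had the opposite sign, at most 0.27 in size on the log2 scale. With the pair as a replicate block the log2 difference was -0.0635 for Ina and -0.0025 for Thy1, and the block changed no call. With all 6 arrays Thy1 had -0.12, with the block as well as without. With array weights Nefm had 0.0072, Sncg 0.19 and Gap43 -0.0221. On the signals as deposited Ina had -0.21, Thy1 -0.25 and Gap43 -0.16, and the median wildtype level of the 8 genes was 291 in place of 643. Quantile normalization gave Rbpms 0.0095. The mean over all probe sets gave -0.0121 for Ina and 0.15 for Rbpms, and plain _at probe sets gave -0.0473 for Ina, with no such probe set for Rbpms. Leaving out 1 array at a time, the range was -0.0838 to 0.0287 for Nefm, -0.27 to 0.39 for Ina, -0.31 to 0.16 for Sncg, -0.0853 to 0.14 for Thy1, -0.051 to 0.28 for Gap43 and -0.14 to 0.092 for Rbpms. Where a knockout array is left out, the lone one is assumed to vary like wildtype. Nefl stayed negative, from -0.55 to -0.06. Nefh, which did not pass the filter, had -0.24 without it on 5 arrays and -0.72 on all 6. The cause of these shifts was not tested.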

Other observations

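Among the 52 tested genes of the related lists, 38 (73.1%) had the same sign in litter 3 minus litter 1 in both genotypes, close to the 72.9% of all probe sets that passed the filter. The 4 genes with the largest difference shared by both genotypes were Map2, Mapt, Ntm and Marcksl1, named after their values were seen. Map2, a microtubule protein of dendrites, had 413 and 545 in wildtype replicates 1 and 2 and 473 in knockout replicate 1, against 129 in wildtype replicate 3 and 122 in knockout replicate 3 on 1421328_at. Its probe set 1421327_at had 144, 212 and 93.6 in wildtype and 153 and 88.9 in knockout replicates 1 and 3. Mapt, the axonal microtubule protein tau, ran the other way on probe set 1424719_a_at, with 2249, 2029 and 7398 in wildtype and 1992 and 5655 in knockout replicates 1 and 3. The other Mapt probe sets did not share this: 1424718_at had 760, 617 and 704 in wildtype and 604 and 783 in the knockouts, and 1417885_at had 188, 181 and 148 in wildtype and 183 and 212 in the knockouts. Ntm, a surface glycoprotein of the IgLON family, had 559, 702 and 1317 in wildtype and 563 and 1213 in knockout on 1426283_at, but 528, 370 and 364 and then 486 and 446 on 1426282_at. Marcksl1 had 7044, 7165 and 13950 in wildtype and 6313 and 10574 in knockout on 1437226_x_at. On 1415922_s_at it likewise had 3745, 3809 and 6200 in wildtype and 3656 and 4891 in knockout. The other Marcksl1 probe sets did not share this: 1435415_x_at had 820, 726 and 486 in wildtype and 757 and 698 in knockout, and 1435627_x_at had 866, 1039 and 798 in wildtype and 916 and 872 in knockout.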
